A study of Mus musculus with 12 samples.

Results

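The pigment cell genes are 10 genes on which melanocytes rely to make melanin: Tyr, Tyrp1, Dct, Pmel, Mlana, Mitf, Slc45a2, Oca2, Gpr143 and Slc24a5. They were chosen by name, with earlier results of these data known, and all 10 were among the 23282 gene entries counted. Their RNA was compared in the skin of 5 mice with atopic dermatitis-like lesions on normal chow (AD) and 7 mice with the same lesions on a high-fat diet (HF + AD, labelled AD+OB). All 12 were wild-type male C57BL/6J mice, a strain with black fur, obtained at 5 weeks of age. The dorsal skin of both groups was painted with 0.5% DNCB, a contact sensitiser, 3 times per week for 6 weeks. HF + AD mice received a diet with 60% of its calories as fat for 10 weeks in all, of which 4 came before DNCB. Each library came from 1 mouse, so p-values set the difference between groups against the spread between mice and their libraries. Unexposed mice were not analysed here, so the values show the high-fat diet against chow within DNCB-treated skin and not the effect of DNCB.

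Melanocytes of mouse back skin sit mainly in the hair bulb, where they make melanin during the growth phase of the hair cycle and pass it to the keratinocytes that form the hair shaft. Melanin is made in the melanosome, an organelle with a fibrillar matrix on which the pigment is laid down, by enzymes that convert tyrosine. The transcription factor Mitf binds E-box motifs of the form CATGTG, often as the longer M-box core TCATGTG, in the promoters of many melanosomal genes.

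The promoters of the pigment genes that hold these letters are shown, since they are the DNA that several of the genes below have in common. Promoter windows of RefSeq on GRCm38.p6, running from 250 bases before to 50 bases after the start of the gene, were matched for 6 of the 10 genes. Pmel, Mlana, Slc45a2 and Gpr143 had no entry. Each window is written 5′ to 3′ on the strand of its gene, and capitals mark TCATGTG or its reverse CACATGA, or for Oca2 the reverse of CATGTG, which is CACATG. The windows are those of Tyr (chr7:87493463-87493762, minus strand), Tyrp1 (chr4:80833963-80834262, plus strand), Dct (chr14:118052197-118052496, minus strand), Slc24a5 (chr2:125067877-125068176, plus strand) and Oca2 (chr7:56239509-56239808, plus strand).
Tyr: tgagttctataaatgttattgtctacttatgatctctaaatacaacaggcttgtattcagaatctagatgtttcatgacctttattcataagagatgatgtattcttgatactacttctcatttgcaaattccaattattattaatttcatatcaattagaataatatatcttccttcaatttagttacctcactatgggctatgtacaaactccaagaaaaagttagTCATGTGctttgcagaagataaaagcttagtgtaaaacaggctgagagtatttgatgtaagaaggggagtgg
Tyrp1: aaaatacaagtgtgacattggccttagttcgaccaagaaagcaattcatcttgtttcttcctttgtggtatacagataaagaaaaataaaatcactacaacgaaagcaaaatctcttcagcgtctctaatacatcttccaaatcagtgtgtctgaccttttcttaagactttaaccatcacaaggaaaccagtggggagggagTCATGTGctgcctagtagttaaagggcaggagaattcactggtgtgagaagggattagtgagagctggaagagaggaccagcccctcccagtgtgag
Dct: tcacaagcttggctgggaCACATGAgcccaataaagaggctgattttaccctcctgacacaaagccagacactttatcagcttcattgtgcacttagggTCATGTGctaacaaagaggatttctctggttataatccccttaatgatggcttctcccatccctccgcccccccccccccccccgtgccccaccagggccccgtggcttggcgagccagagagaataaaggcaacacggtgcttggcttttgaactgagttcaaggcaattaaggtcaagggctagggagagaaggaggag
Slc24a5: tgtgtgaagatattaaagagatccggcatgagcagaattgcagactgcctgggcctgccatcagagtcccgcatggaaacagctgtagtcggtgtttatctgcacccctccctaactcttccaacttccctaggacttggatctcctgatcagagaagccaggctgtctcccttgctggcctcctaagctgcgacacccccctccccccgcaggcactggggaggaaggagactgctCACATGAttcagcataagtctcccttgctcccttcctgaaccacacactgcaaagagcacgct
Oca2: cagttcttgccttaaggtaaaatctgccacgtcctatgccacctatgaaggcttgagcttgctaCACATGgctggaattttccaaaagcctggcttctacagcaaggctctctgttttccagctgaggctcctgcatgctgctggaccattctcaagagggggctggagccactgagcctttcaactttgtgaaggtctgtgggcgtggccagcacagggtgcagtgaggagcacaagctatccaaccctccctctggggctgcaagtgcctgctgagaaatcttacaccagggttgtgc

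Searched on both strands, TCATGTG was found in the windows of Tyr, Tyrp1, Dct and Slc24a5, which is 4 of the 6 genes, against 4.31% of the 27025 genes with such a window. Counted from the start of the gene, with bases before it negative, it lay at -22 to -16 in Tyr, at -47 to -41 in Tyrp1 and, reversed, at -13 to -7 in Slc24a5. The window of Dct held it at 2 places, -151 to -145 and, reversed, -232 to -226. The shorter CATGTG lies within TCATGTG and was therefore found in the same 4 genes, and also in Oca2, reversed, at -186 to -181. That makes 5 of the 6 genes, against 15.89% of all genes with a window. None of the 3 windows of Mitf itself held either motif. A match describes the letters only, and binding was not measured.

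Between 9746937 and 11688979 reads were counted per AD library and between 10726845 and 13462434 per HF + AD library, so that the 3 counts a count of 0 allows correspond to 0.223 to 0.308 CPM, the unit in which counts are scaled to the size of the library. No molecular identifiers are described, so such limits cover counting error only. The number of counts per sequenced molecule, estimated from the share of zeros, was 12 to 32.2 in AD libraries and 3.92 to 7.35 in HF + AD libraries, without overlap. By this estimate an AD count stands for fewer molecules. Expected counts came from the other mice of the group, so differences between those mice can raise the estimate too. Correlations between libraries were 0.797 to 0.920 within AD and 0.930 to 0.969 within HF + AD. The difference in counts per molecule moves with the groups, and its part in the results was not tested beyond the alternative in which counts were divided by it. Markers of skin were abundant in all libraries, with Krt5, a keratin of basal keratinocytes, at 2863 ± 593 CPM (SD, n = 5) in AD and 5022 ± 866 CPM (SD, n = 7) in HF + AD mice.

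Pigment cell RNA was lower in HF + AD skin for part of the list. Dct, Pmel, Oca2 and Slc24a5 fell, to between 0.43 and 0.73 times the AD level, by edgeR's quasi-likelihood test with Benjamini-Hochberg adjustment over 14163 genes at a threshold of 0.05. Tyrp1 and Gpr143 had fold changes in the same direction with adjusted p of 0.0717 and 0.101, and Mlana, Slc45a2, Tyr and Mitf did not pass the test. All 10 genes passed the filter on low counts. The 4 genes called lower among 10 stand against 4.77% of all genes called lower, and 9.2% called in either direction. Pmel and Slc24a5, among the 4, overlap genes on the opposite strand. As the strand of counting is not known, their values may hold reads of those genes. Of the 10, 8 had a log2 fold change below 0, against 48.3% of all genes, and 6 were lower at an unadjusted p under 0.05, against 12.8%. Their median log2 fold change was -0.57, beside 0.023 over all genes tested. Because the list was chosen with earlier results of these data known, the choice can add to these differences from all genes. The number called was between 1 and 4 when 1 mouse was left out, and Dct alone remained where the mouse left out was number 2, 4 or 5 of the AD group or number 2 or 7 of the HF + AD group.

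Summed over the 10 genes, the level was 2648 ± 450 CPM (SD, n = 5) in AD and 1693 ± 362 CPM (SD, n = 7) in HF + AD mice. It ranged from 1970 to 3079 CPM in AD and from 983 to 2139 CPM in HF + AD mice, and 5 of the 7 HF + AD mice lay below all AD mice. Between 50.9% and 59.4% of this sum was reads of Dct, so the sum follows that gene. In bulk skin, fewer melanocytes and less RNA per melanocyte cannot be told apart.

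**Figure D1:**
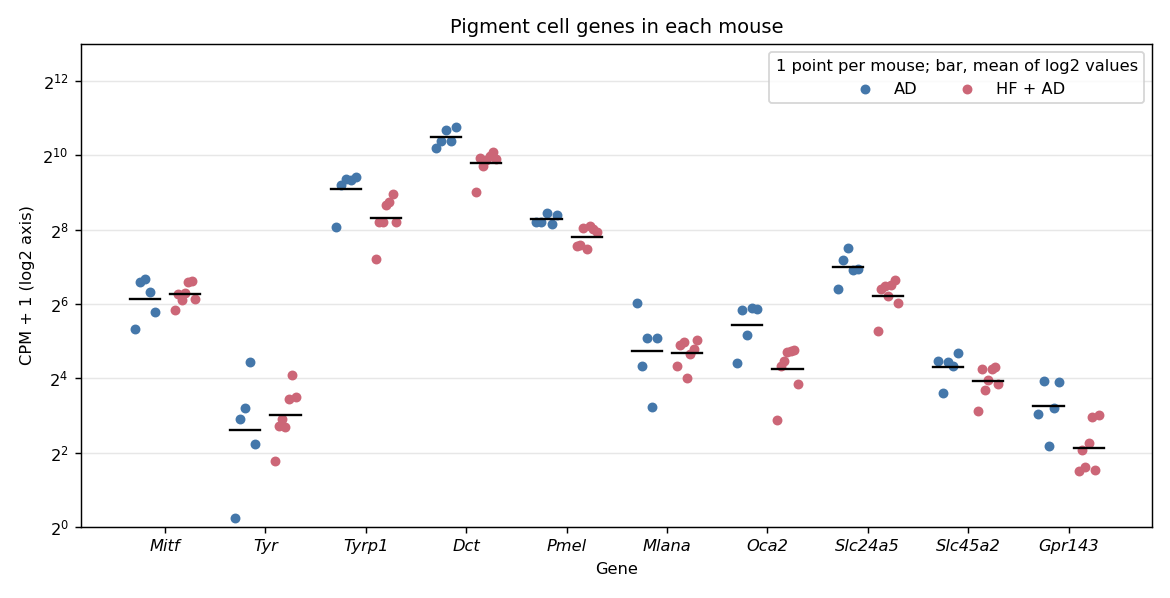
Level of each of the 10 pigment cell genes in every mouse, as CPM + 1 on a log2 axis, with AD mice in blue, HF + AD mice in red and a bar at the mean of the log2 values of each group. Dct and Pmel are lower in all 7 HF + AD mice than in any AD mouse, whereas the groups overlap for the other 8 genes.

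Dct, dopachrome tautomerase, acts on dopachrome in the making of brown-black eumelanin (chromosome 14, 118012790 to 118052244, minus strand; gene positions are those of GENCODE M21 on GRCm38). Its level in AD mice 1 to 5 was 1169, 1334, 1651, 1340 and 1747 CPM, and in HF + AD mice it ran from 516 through a median of 954 to 1093 CPM. All 7 HF + AD mice lay below the lowest AD mouse, and no overlap of this direction was found in 2.56% of all genes. Means were 1448 ± 241 CPM (SD, n = 5) and 903 ± 187 CPM (SD, n = 7), a level 37.7% lower. The edgeR log2 fold change was -0.68 (SE 0.16, 95% interval -1.03 to -0.34, adjusted p = 0.0177). The two-sided exact permutation test gave p = 0.00126, and with 792 ways to split 12 mice no lower value can be reached. Dct was called in all 23 alternatives of the fit, with adjusted p between 0.00121 and 0.0437.

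Tyrp1, tyrosinase-related protein 1, stabilises tyrosinase and takes part in the later steps of eumelanin synthesis (chromosome 4, 80834123 to 80851719, plus strand). It was at 269, 588, 661, 646 and 685 CPM in AD mice 1 to 5, and at 148 to 500 CPM, with a median of 295, in HF + AD mice. AD mouse 1 stood far below the other 4 AD mice, and 1 HF + AD mouse lay below it. The mean was 40.8% lower in HF + AD mice (570 ± 172 against 338 ± 116 CPM, SD). Tyrp1 had a log2 fold change of -0.76 (SE 0.25, edgeR adjusted p = 0.0717) and an exact permutation p of 0.0442. Its adjusted p was 0.0181 once AD mouse 1 was dropped and 0.0497 once HF + AD mouse 6 was, so the call for Tyrp1 turned on single mice. The exact permutation p of Tyrp1 was under 0.05 in 5 of 15 alternatives and reached 0.1 when AD mouse 3, 4 or 5 was left out.

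Tyr encodes tyrosinase, the enzyme of the first and rate-limiting step of melanin synthesis (chromosome 7, 87424771 to 87493512, minus strand). It was counted at low levels of 0.182, 6.53, 8.18, 20.5 and 3.71 CPM in AD mice 1 to 5, where AD mouse 1 had 2 reads, and at 2.39 to 15.9 CPM, with a median of 6.53, in HF + AD mice. The groups overlapped throughout. Means were 7.83 ± 7.72 CPM (SD, n = 5) and 7.97 ± 4.43 CPM (SD, n = 7), and the log2 fold change of 0.026 had a 95% interval of -1.37 to 1.42, which spans changes as large as those of the other 2 enzymes. The edgeR adjusted p was 0.987 and the exact permutation p 0.577. Without AD mouse 1 the log2 fold change was -0.28, so the sign of the Tyr value was not fixed by these data. Divided by the estimated counts per molecule, the AD counts of Tyr give 0.0621 to 19.1 molecules per library. Reads need at least 1 molecule, so the estimate does not hold at the lowest of these counts. The GC content of the Tyr transcript, 35.2%, was low against a median of 48.9% over genes.

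Pmel forms the amyloid fibrils of the melanosome matrix (chromosome 10, 128704195 to 128720238, plus strand). AD mice 1 to 5 had 297, 295, 346, 286 and 338 CPM, and HF + AD mice 179 to 271 CPM with a median of 246. As for Dct, all 7 HF + AD mice lay below all AD mice. The mean was 27.2% lower (312 ± 27.9 against 227 ± 40.1 CPM, SD), with a log2 fold change of -0.46 (SE 0.14, edgeR adjusted p = 0.043) and an exact permutation p of 0.00631. The edgeR call was close to its threshold. It held without HF + AD mouse 3 or 5, but leaving out any other single mouse gave an adjusted p of 0.0507 to 0.0943. The last 105 bases of Pmel (chr10:128720134-128720238) are also exonic in Dgka, a diacylglycerol kinase gene on the opposite strand. Dgka was at 272 ± 27.2 CPM (SD, n = 5) in AD and 199 ± 36.5 CPM (SD, n = 7) in HF + AD mice, and its log2 fold change was -0.45 (edgeR adjusted p = 0.0475). Counts of Pmel and Dgka stood at ratios of 1.07 to 1.33 in the 12 mice, with r = 0.952 between them. Whether counting used strand is not given in the sources used here, so reads of the pair cannot be told apart and the value of Pmel is uncertain.

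Mlana, also known as MART-1, is a membrane protein of early melanosomes that takes part in the processing of Pmel (chromosome 19, 29697824 to 29708634, plus strand). It was at 63.6, 19.0, 33.1, 8.32 and 32.6 CPM in AD mice 1 to 5 and at 15.1 to 31.4 CPM, with a median of 26.6, in HF + AD mice. All HF + AD values fell inside the AD range. AD mouse 1 was the highest of all 12 mice for Mlana, although it was the lowest AD mouse for 6 of the 10 genes. The log2 fold change was -0.31 (95% interval -1.06 to 0.43, edgeR adjusted p = 0.634, exact permutation p = 0.871).

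Oca2 encodes the P protein, a melanosomal membrane transporter needed for the neutral pH in which tyrosinase works (chromosome 7, 56239760 to 56536518, plus strand). Levels in AD mice 1 to 5 were 20.3, 56.0, 35.1, 58.3 and 57.0 CPM, and those in HF + AD mice 6.32 to 26.3 CPM with a median of 20.9. AD mouse 1 again lay inside the HF + AD range, and the other 4 AD mice lay above all HF + AD mice. The mean was 57.0% lower (45.4 ± 17.0 against 19.5 ± 7.38 CPM, SD). The log2 fold change was -1.22 (SE 0.32, 95% interval -1.89 to -0.54, edgeR adjusted p = 0.0265), with an exact permutation p of 0.0114. Dropping number 2, 4 or 5 of the AD mice, or number 2 or 7 of the HF + AD mice, ended the call, with adjusted p between 0.0508 and 0.0624.

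Slc24a5 is an ion exchanger of the melanosome pathway whose loss lightens pigment (chromosome 2, 125068124 to 125088677, plus strand). AD mice 1 to 5 had 83.6, 144, 181, 120 and 123 CPM, and HF + AD mice 37.9 to 100.01 CPM with a median of 84.4. Only AD mouse 1 overlapped with the HF + AD mice. The log2 fold change was -0.76 (SE 0.21, edgeR adjusted p = 0.0362), the exact permutation p 0.0126 and the mean 40.9% lower. The adjusted p rose to between 0.0534 and 0.101 when number 2, 3, 4 or 5 of the AD mice, or number 2, 4 or 7 of the HF + AD mice, was dropped.

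The value of Slc24a5 rests on reads that may belong to its neighbour. The gene shares 921 exonic bases, between positions 125085657 and 125088677 of chromosome 2 and up to its own 3′ end, with Myef2 on the opposite strand. Myef2, a repressor of the myelin basic protein gene, was at 142 ± 33.4 CPM (SD, n = 5) in AD and 84.6 ± 20.6 CPM (SD, n = 7) in HF + AD mice, with a log2 fold change of -0.75 (edgeR adjusted p = 0.0245). Counts of Slc24a5 were 0.823 to 0.996 times those of Myef2 in the 12 mice, with r = 0.993. With the strand of counting not known, the Slc24a5 and Myef2 values cannot be told apart. The 8 pigment genes other than Slc24a5 and Pmel share no exonic bases with another gene.

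**Figure D2:**
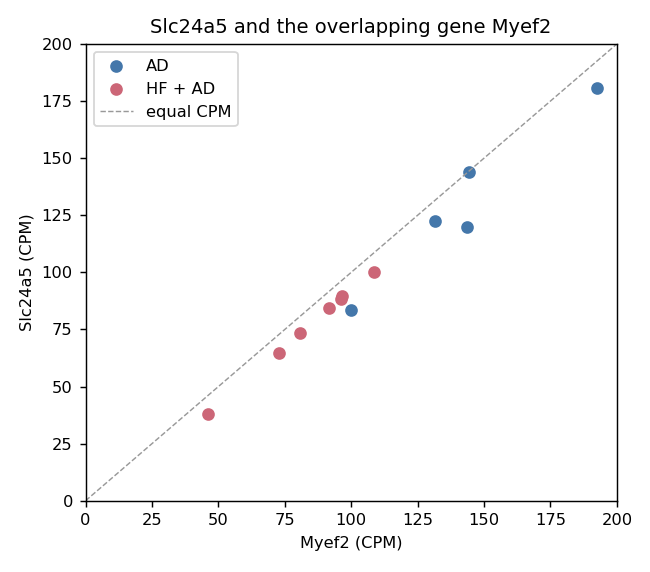
Slc24a5 against Myef2, both in CPM, with 1 point per mouse (AD blue, HF + AD red) and a dashed line where the values are equal. The 12 points lie close to the line, with count ratios of 0.823 to 0.996.

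Slc45a2, another melanosomal transporter linked to pH and pigment shade, was at 20.9, 11.2, 20.5, 18.9 and 24.7 CPM in AD mice 1 to 5 (chromosome 15, 11000721 to 11029233, plus strand). In HF + AD mice it was at 7.63 to 18.8 CPM with a median of 14.6, and the groups overlapped through AD mouse 2. Its log2 fold change of -0.39 (SE 0.27, 95% interval -0.96 to 0.17) did not pass the test (edgeR adjusted p = 0.395, exact permutation p = 0.155). Without AD mouse 2, which was the lowest AD mouse, the exact permutation p was 0.0273.

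Gpr143, the receptor of the ocular albinism 1 locus, controls the size and number of melanosomes (X chromosome, 152781921 to 152808646, plus strand). It had 7.26, 14.2, 3.54, 8.14 and 14.0 CPM in AD mice 1 to 5 and 1.85 to 6.995 CPM, with a median of 3.18, in HF + AD mice. The mean was 60.0% lower (9.43 ± 4.61 against 3.77 ± 2.23 CPM, SD), the largest relative difference in mean among the 10 genes, and 4 of 7 HF + AD mice lay below all AD mice. The log2 fold change was -1.32 (SE 0.49, 95% interval -2.36 to -0.28). The exact permutation p was 0.0189 and was not adjusted over genes. The edgeR p was 0.016 before adjustment and 0.101 after it, so only the adjusted value missed the threshold. Without AD mouse 2 or 5 the exact permutation p was 0.0515. Gpr143 was counted from an estimated 2.14 to 12.9 molecules per AD library and 3.51 to 17.1 per HF + AD library.

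Mitf, the transcription factor that directs the melanocyte lineage, did not pass the test (chromosome 6, 97807052 to 98021349, plus strand). It was at 39.0, 94.99, 101, 78.5 and 53.9 CPM in AD mice 1 to 5 and at 56.2 to 98.1 CPM, with a median of 75.7, in HF + AD mice, and every HF + AD value fell inside the AD range. Means were 73.5 ± 26.6 CPM (SD, n = 5) and 77.3 ± 15.1 CPM (SD, n = 7). The log2 fold change was 0.073 with a 95% interval of -0.38 to 0.53 (edgeR adjusted p = 0.875, exact permutation p = 0.636), an interval that leaves out a fall as large as the Dct estimate. Mitf is also transcribed in other cell types, among them mast cells and osteoclasts, and counts per gene do not separate its isoforms.

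Within single mice, the reads of Mitf amounted to 3.08% to 7.12% of those of Dct in AD (median 5.86%) and to 7.30% to 10.9% in HF + AD mice (median 8.28%). The ranges did not overlap. Dct itself did not overlap between the groups and Mitf did not pass the test, so the ratio is not independent of the Dct difference. This ratio was formed after the values were seen and was given no test. The share of all genes whose ratio to Dct separates the groups was not counted. Relative to Dct, Tyrp1 had ranges that overlapped, at 23.0% to 48.2% in AD and 28.7% to 45.8% in HF + AD mice, and so did Slc24a5, at 7.02% to 10.9% and 6.79% to 10.6%.

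**Figure D3:**
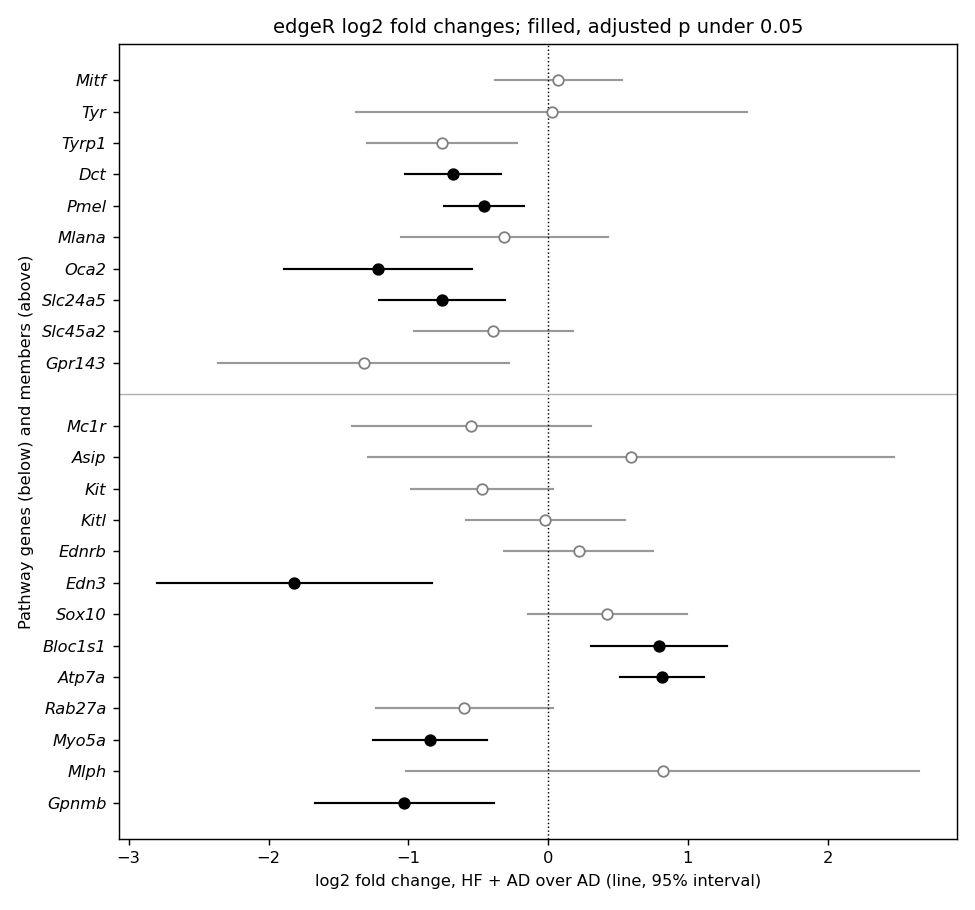
Log2 fold change of HF + AD over AD from edgeR, with 95% intervals, for the 10 pigment cell genes above the grey line and 13 further genes of the pigment pathway below it; filled points have an adjusted p under 0.05. Dct, Pmel, Oca2 and Slc24a5 are filled on the left of 0, and the intervals of Mitf and Tyr span 0.

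Over all 10 genes, the exact permutation test gave an unadjusted p under 0.05 with a lower HF + AD mean for 6 genes (Dct, Pmel, Oca2, Slc24a5, Gpr143 and Tyrp1), against 11.8% of all genes. The choice of the list with earlier results known can add to this difference from all genes. The spread between mice differed widely among the genes. Pmel had a coefficient of variation of 8.93% in AD and 17.6% in HF + AD mice and Dct of 16.7% and 20.7%, whereas Tyr varied by 98.7% and 55.6% and Mlana by 66.4% and 24.2%. The highest and lowest mice recurred. AD mouse 1 was the lowest AD mouse for 6 genes, HF + AD mouse 1 was the lowest of its group for 8, and HF + AD mouse 6 was the highest of its group for 7.

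After each group mean was subtracted, Pearson's r between pairs of the 10 genes over the 12 mice ranged from -0.61 (Tyr with Mlana) to 0.91 (Tyrp1 with Oca2), with a median of 0.39 over 45 pairs. Of these pairs, 19 were above 0.5, among them Tyrp1 with Dct (0.86) and Dct with Slc24a5 (0.82). These values are descriptions, since the points share libraries, depth and normalisation.

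Among the 13190 other genes with a mean count of at least 20, those most like the mean standardised level of the 10 genes over the 12 mice were Stk17b (r = 0.945), Myef2 (0.938), Ss18 (0.935), Ccdc64b (0.929) and Jakmip2 (0.928). Myef2 is the neighbour that may share the reads of Slc24a5. With group means subtracted, the most alike were Tubgcp4 (r = 0.934), Selenbp1 (0.920), H1f0 (0.904), Stk17b (0.901) and Lonp1 (0.893). Tubgcp4, a component of the gamma-tubulin ring complex, fell from 138 ± 23.7 to 73.8 ± 16.6 CPM (SD), with a log2 fold change of -0.90 (SE 0.17, edgeR adjusted p = 0.00707). Lonp1, a mitochondrial protease, was at 87.6 ± 10.9 and 86.1 ± 12.6 CPM (SD), with little difference between its group means. All these genes were picked for the highest r among 13190 over 12 mice, and what chance alone would give was not tested.

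A further 48 genes of the pigment pathway were listed by role, and 45 were counted highly enough to be tested. Of these, 19 were higher and 26 lower in HF + AD mice, and 5 passed the test, 3 lower and 2 higher, against the 9.2% of all genes called. Their median log2 fold change was -0.036. The number called was 2 to 5 when 1 mouse was left out, and the 2 came from dropping AD mouse 2 or number 1 or 2 of the HF + AD mice.

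Among 9 signals and receptors of melanocytes, 8 were tested and 1 fell, against 4.77% of all genes called lower. Edn3, which encodes endothelin 3, a growth factor for melanocytes and their precursors, was at 11.3 ± 4.79 CPM (SD, n = 5) in AD and 3.19 ± 1.93 CPM (SD, n = 7) in HF + AD mice. Of the 7 HF + AD mice, 6 lay below all AD mice, and the log2 fold change was -1.82 (SE 0.47, edgeR adjusted p = 0.0243). Edn3 had 69 to 172 counts per AD library and 17 to 79 per HF + AD library. By the estimated counts per molecule, these stand for few molecules. The adjusted p of Edn3 was 0.0502 to 0.0596 after dropping AD mouse 2 or number 1 or 2 of the HF + AD mice. Its receptor Ednrb had a log2 fold change of 0.22 (edgeR adjusted p = 0.650). Kit, the receptor tyrosine kinase on which melanocytes depend, was at 23.6 ± 5.40 and 17.0 ± 4.79 CPM (SD), with a log2 fold change of -0.47 (edgeR adjusted p = 0.232), and its ligand Kitl had -0.019 (0.979). Neither Mc1r, the receptor for melanocyte-stimulating hormone, with -0.55 (0.438), nor its antagonist Asip, listed as a, with 0.59 (0.736), passed the test. Pomc, the precursor of melanocyte-stimulating hormone, had 0 to 26 counts per library and was not tested.

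None of the 8 transcription factors on the list passed the edgeR test, with 0 at an unadjusted p under 0.05, and DESeq2 and limma called 0 as well. Sox10, which acts on the Mitf promoter and is also made by Schwann cells, had a log2 fold change of 0.42 (SE 0.27, edgeR adjusted p = 0.355). Its level was 12.96 ± 5.34 CPM (SD, n = 5) in AD and 17.4 ± 2.50 CPM (SD, n = 7) in HF + AD mice.

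Of 22 genes for the building of melanosomes and related organelles, all tested, 2 rose and 0 fell. Among all 14163 genes 627 rose, and 9.2% were called in either direction. Atp7a, the copper transporter that supplies tyrosinase, was at 93.5 ± 9.48 CPM (SD, n = 5) in AD and 164 ± 28.6 CPM (SD, n = 7) in HF + AD mice. Every HF + AD mouse exceeded the highest AD mouse, and the share of all genes with no overlap in this direction was not counted. The log2 fold change was 0.81 (SE 0.14, edgeR adjusted p = 0.00601), and the call held in all 23 alternatives. Bloc1s1, a subunit of a complex that sorts cargo to the melanosome, had a log2 fold change of 0.79 (SE 0.23, edgeR adjusted p = 0.0403). It rose from 33.0 ± 7.39 to 57.1 ± 17.5 CPM (SD), and its call held only when AD mouse 1 or HF + AD mouse 3 or 5 was the mouse left out, with adjusted p of 0.0514 to 0.0959 for the other 9 mice. Both genes are used by most cell types.

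Melanosomes are carried to the cell edge by a complex of Rab27a, Mlph and Myo5a. Of these, Myo5a, the myosin motor, fell from 271 ± 70.1 to 151 ± 36.5 CPM (SD), with a log2 fold change of -0.85 (SE 0.19, edgeR adjusted p = 0.0151), and was called in all 23 alternatives. In this gene 4 of 7 HF + AD mice lay below all AD mice. Rab27a, the small GTPase on the melanosome, had -0.60 (edgeR adjusted p = 0.226), and Mlph, the link between the GTPase and the motor, 0.82 (0.614). Gpnmb, a glycoprotein related to Pmel and also made by macrophages, fell from 1356 ± 674 to 665 ± 252 CPM (SD), with a log2 fold change of -1.03 (SE 0.30, edgeR adjusted p = 0.0432). Leaving out AD mouse 1 or 3 or HF + AD mouse 5 kept this call, and leaving out any of the other 9 mice gave an adjusted p of 0.0518 to 0.145. Rab17 and Mcoln3 had at most 23 and 17 counts per library and were not tested.

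Since hair bulb melanocytes are active only in growing follicles, markers of the follicle were set beside the pigment genes. Over all 14163 genes tested, 627 were called higher and 676 lower in HF + AD mice. None of the 13 hair shaft keratins was called lower. A rise was called for 4 of them (Krt31, Krt34, Krt84 and Krt86), with 12 of 13 having log2 fold changes above 0 and a median of 0.52, and leaving out 1 mouse gave 2 to 6 called, with 2 called when number 1, 2, 3 or 4 of the AD mice or number 1, 2, 5, 6 or 7 of the HF + AD mice was dropped. Their summed level was 2920 to 5816 CPM in AD and 4296 to 7124 CPM in HF + AD mice, and Krt81, the most abundant, was at 1123 ± 329 and 1611 ± 390 CPM (SD). Of 8 inner root sheath genes tested, 3 rose (Krt26, Krt27 and Krt71), and the most abundant, Tchh, was at 3923 ± 594 and 3911 ± 798 CPM (SD). Among 10 genes of the hair matrix and growing bulb, 1 rose, Foxn1, a transcription factor of hair keratinocytes (log2 fold change 0.78, edgeR adjusted p = 0.0132), and the sums of this list overlapped at 584 to 1145 CPM in AD and 875 to 1222 CPM in HF + AD mice. The part of follicle RNA in the pigment gene values was not tested.

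**Figure D4:**
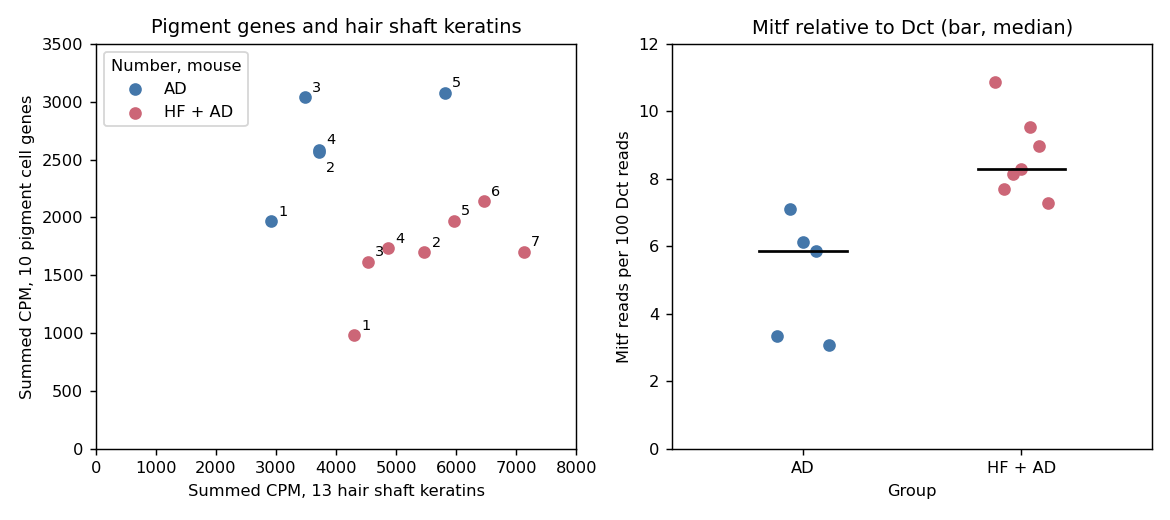
Left, summed CPM of the 10 pigment cell genes against summed CPM of 13 hair shaft keratins, 1 numbered point per mouse (AD blue, HF + AD red); right, Mitf reads per 100 Dct reads in each mouse, with a bar at the group median. On the pigment axis 5 of the 7 HF + AD mice lie below all AD mice. On the keratin axis 3 of the 7 lie above all AD mice. The HF + AD Mitf ratios of 7.30 to 10.9 lie above the AD ratios of 3.08 to 7.12. Dct itself does not overlap between the groups, so the ratio is not independent of the Dct difference.

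Some markers of other cell types also differed between the libraries. The 9 keratinocyte markers summed to 3881 to 6213 CPM in AD and 6364 to 10960 CPM in HF + AD mice, above all AD mice in 7 of 7. Krt5, the most abundant of them, was at 2863 ± 593 and 5022 ± 866 CPM (SD) and weighs heavily in this sum. Of the 9 markers, 3 were called higher, against 627 of all 14163 genes. Log2 fold changes of the markers were above 0 for 6 and below 0 for 3, with a median of 0.12. The share of all genes higher in every HF + AD mouse than in any AD mouse was not counted. Skeletal muscle markers summed to 1183 to 2493 CPM in AD and 756 to 1911 CPM in HF + AD mice. Of the HF + AD mice, 4 of 7 lay below all AD mice. Log2 fold changes of 9 of the 10 muscle markers were below 0, against 48.3% of all genes. Among these markers 1 was called lower, against 4.77% of all genes. The count of muscle markers called was 0 when number 1, 2 or 4 of the AD mice or number 2, 4, 5 or 7 of the HF + AD mice was dropped, and 3 on dropping HF + AD mouse 6. Acta1, skeletal muscle actin and the most abundant of them, was at 716 ± 168 and 434 ± 153 CPM (SD). The part of keratinocyte and muscle RNA in the lower pigment gene levels was not tested.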

How the data were processed

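Libraries of mRNA 3′ ends (QuantSeq) from the skin of 5 AD and 7 HF + AD mice, 1 per mouse, were grouped by their labels. The values deposited by the authors are raw counts of reads on each gene symbol. The submitters' processing notes name Bowtie2, bedtools and mm10. Versions, the annotation, the strand of counting and the treatment of duplicates are not given in the sources used here. Of 23282 entries, 35 symbols were listed more than once, each entry being kept on its own, and 4677 had no count in any mouse. Between 9746937 and 13462434 reads were counted per library, and no pair of libraries was identical.

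HF + AD was compared with AD in edgeR 4.0.16 under R 4.3.3 (TMM factors of 0.944 to 1.04, filterByExpr, quasi-likelihood test on condition, p adjusted by Benjamini-Hochberg across 14163 genes at a threshold of 0.05). Levels are CPM with TMM-scaled totals. For single genes, an exact permutation test (two-sided, all 792 splits of 12 mice) was also run on log2(CPM + 1), with a pseudocount of 1. Alternatives used limma 3.58.1, DESeq2 1.42.0 and others given in the closing section. A correction for GC content in 20 bins was added after the data were seen. Counts per molecule were estimated from zeros among genes with 10 to 200 expected counts. Python 3.11.15, NumPy 2.4.6, SciPy 1.17.1 and matplotlib 3.10.9 served for other steps, and the fit was tested on simulated data.

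The members and lists were chosen with earlier results of these data known. Genes named are the 10 members, pathway genes with an adjusted p under 0.05 and 10 pathway genes fixed by name, marker genes at 0 in all mice or most abundant in a list, and the 5 genes most like the members by each of 2 measures. Other genes, including Myef2, Dgka, Pomc, Rab17, Mcoln3 and the called hair genes, were named after their values were seen. Proteins were not analysed here.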

Additional observations from a re-analysis of the deposited data

Results flagged for a closer look

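Mice that stood apart from the rest of their group were sought for 23 genes in both groups, and 7 of 46 groups of values held one by Dixon's criterion, which chance alone meets in about 1 group in 20. All 7 were the lowest of their group. AD mouse 1 stood apart for Tyrp1, at 8.08 on the log2(CPM + 1) scale against 9.20 in the nearest AD mouse. The same mouse stood apart for Mc1r (2.27, nearest 4.00), Kitl (4.10, nearest 5.35) and Myo5a (7.24, nearest 8.17). Its library had the highest estimated counts per molecule, 32.2, followed by AD mouse 2 with 29.3. That of HF + AD mouse 1 had 4.04. The part of this in the low values was not tested. HF + AD mouse 1 was apart for Dct (9.02, nearest 9.71) and for Kitl (4.47, nearest 5.29), and HF + AD mouse 5 for Asip (0.55, nearest 1.59). Without HF + AD mouse 1, Dct was still called lower, as it was without each other mouse.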

How the results depend on the processing

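Across 23 alternatives of the fit over all genes, the median log2 fold change of the pigment genes stayed between -0.5 and -0.67. Dct was called in 23, Oca2 in 18, Slc24a5 in 14, Pmel in 9, Tyrp1 in 5 and Gpr143 in 2. With library totals alone and with sample quality weights, 2 of the 10 genes were called instead of 4. DESeq2's Wald test called 6, adding Tyrp1 and Gpr143, and 5 were called with at least 10 counts in every mouse and with counts divided by counts per molecule. Leaving out 1 mouse gave 1 to 4 pigment genes, 2 to 5 of the pathway list and 639 to 1461 of all genes (1303 with all mice; within the HF + AD group 639 on dropping mouse 2, 686 for mouse 1 and 794 for mouse 4, and 803 on dropping AD mouse 2). Sample quality weights gave 766 of all genes. The replicate number as a block gave 192 of all genes, 4 pigment genes (Tyrp1 called, adjusted p = 0.0307, and Pmel not, 0.0686) and 3 of the pathway list. Same-numbered mice had correlations of -0.0815 to 0.0389, so the numbers were not taken to pair them, and no mouse correlated best with its own number. Of the uncalled genes, the log2 fold change of Tyr was -0.18 with counts divided by counts per molecule and -0.28 to 0.78 with 1 mouse left out, that of Mlana 0.41 with sample quality weights and -0.55 to 0.12, and that of Mitf -0.081 to 0.21. The differences in log2(CPM + 1) with 1 mouse left out ran from -0.19 to 0.86 for Tyr, -0.45 to 0.25 for Mlana and -0.069 to 0.27 for Mitf. The filter of 10 counts in every mouse left out Tyr. The cause of these differences was not tested.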

Other observations

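Markers of other cells that neighbour melanocytes or share genes with them were counted in the same libraries. Schwann cells, which share Sox10 with melanocytes, had 0 of 8 tested markers called by edgeR and 0 at an unadjusted p under 0.05. Their summed level was 235 to 479 CPM in AD and 296 to 328 CPM in HF + AD mice, the most abundant marker was Egr2 at 168 ± 42.6 and 139 ± 18.1 CPM (SD), and Cdh19 was at 0 in all mice. When AD mouse 1 was left out, 2 of the Schwann markers were called higher. Mast cells, which express Kit and Mitf, had 0 of 6 tested markers called and 1 higher at an unadjusted p under 0.05, and 1 was called higher by DESeq2, 1 when any of the 5 AD mice was left out and 2 with no filter on low counts. The mast cell markers summed to 108 to 271 CPM in AD and 120 to 359 CPM in HF + AD mice, with Mcpt4 at 54.1 ± 11.7 and 65.3 ± 36.1 CPM (SD). Macrophages, which make Gpnmb, had 0 of 9 markers called and 3 higher at an unadjusted p under 0.05, and 3 were called without AD mouse 1. The macrophage markers summed to 41.7 to 206 CPM in AD and 68.7 to 311 CPM in HF + AD mice, with C1qa at 26.5 ± 25.2 and 55.1 ± 32.7 CPM (SD).

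Adipocyte markers had 0 of 6 tested genes called and 0 at an unadjusted p under 0.05, with 1 called higher without AD mouse 2, and they summed to 148 to 773 CPM in AD and 115 to 613 CPM in HF + AD mice, with Fabp4 the most abundant at 204 ± 196 and 176 ± 104 CPM (SD). Dermal fibroblast markers had 0 of 6 called and 1 at an unadjusted p under 0.05. Col1a1 was the most abundant of them, at 2841 ± 1185 and 2079 ± 1148 CPM (SD), and 2 were called higher without AD mouse 1. DESeq2 and limma called 0 of the Schwann cell, macrophage, adipocyte and fibroblast markers. The part of any of these cells in the pigment gene values was not tested.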
